A study of Mus musculus with 9 samples.

Results

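The region described here is a 400 kb stretch of mouse chromosome 15, chr15:77070001-77470000 on mm10, that holds Rbfox2 and the DNA upstream of it. An interaction belongs to it if at least 1 of its bins overlaps the stretch. That gave 462 of the 137744 interactions in the 4 deposited lists. They were 218 of 36274 untreated H3K27ac interactions, 127 of 28210 H3K27ac interactions after IAA, 80 of 49630 CTCF interactions and 37 of 23630 RAD21 interactions. Inside the stretch, the 12 bins of 2 kb at chr15:77336001-77360000, called the cluster below, were chosen by their measured H3K27ac contact counts, because they lose contacts with one another after IAA. Everything from that contrast is therefore given as a description with no test.

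The study used MNase HiChIP, in which chromatin of fixed nuclei is cut with micrococcal nuclease, neighbouring ends are ligated, and the joined fragments are enriched with an antibody. All libraries came from E14 mouse embryonic stem cells of the genotype CTCF AID, grown in serum-free medium with LIF, PD0325901 and CHIR99021. H3K27ac was profiled without treatment (2 libraries) and after 12 h of IAA (2 libraries), and CTCF (2 libraries) and RAD21 (3 libraries) without treatment only. AID is a degron tag through which the auxin IAA triggers loss of the tagged protein; the tag is carried by the untreated cells too, CTCF protein was not analysed here, and effects of IAA itself and of loss of CTCF cannot be told apart. Each group is 1 list pooled over its libraries, so no value has a replicate error and no difference can be set against the spread between replicates. As a check of the labelled cell type, start-site bins of all 5 of the pluripotency genes Pou5f1, Sox2, Nanog, Klf4 and Esrrb had listed H3K27ac pairs, 14 to 21 untreated and 9 to 18 after IAA. Those of Gata4, Neurod1, Myod1, Alb and Pax6, genes of differentiated cells, had 0 in both lists.

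Rbfox2 encodes an RNA-binding protein that controls alternative splicing, with Rbfox1 and Rbfox3 as its relatives. H3K27ac marks active promoters and enhancers. CTCF binds an asymmetric DNA motif and halts loop extrusion by cohesin, of which RAD21 is a subunit, so that loops tend to form between CTCF sites whose motifs point towards each other. Stretches of neighbouring enhancers that contact one another are common around genes that are active in embryonic stem cells.

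Rbfox2 (ENSMUSG00000033565.18) lies on the minus strand at chr15:77078990-77307004 in GENCODE M21. Its most upstream protein-coding start, at 77307004, is the zero point for all distances below. A bin is named by the distance of its lower-coordinate edge from that start in kb, with a minus sign inside or past the gene. The cluster thus runs from the 29 kb to the 51 kb bin, and the bin of the most upstream promoter, chr15:77306001-77308000, is the -1 kb bin. All 12 cluster bins were intergenic in that annotation. The nearest annotated gene beyond them was Gm49436 at 59 kb, followed by the pseudogene Gm3787, and then by the protein-coding Apol7a, Apol9a and Apol7b.

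CTCF motifs in the cluster are shown first because the CTCF and RAD21 interactions with most contacts, described below, end at bins that hold one. Bases were read from the RefSeq copy of GRCm38.p6, the build named mm10. Each match to a CTCF core of 14 letters with at most 1 mismatch is written 5′ to 3′ on its own strand, with the match in capitals and 12 bases on either side.
29 kb bin, chr15:77336616-77336653, minus strand: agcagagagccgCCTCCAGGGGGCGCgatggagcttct
29 kb bin, chr15:77336829-77336866, plus strand: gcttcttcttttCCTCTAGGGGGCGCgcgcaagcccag
31 kb bin, chr15:77338088-77338125, plus strand: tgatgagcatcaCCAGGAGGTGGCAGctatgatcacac
35 kb bin, chr15:77342175-77342212, minus strand: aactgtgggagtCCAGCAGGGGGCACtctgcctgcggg
35 kb bin, chr15:77343581-77343618, plus strand: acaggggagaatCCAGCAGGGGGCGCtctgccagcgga
51 kb bin, chr15:77358842-77358879, minus strand: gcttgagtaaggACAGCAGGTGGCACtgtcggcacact

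Both matches in the 35 kb bin had 0 mismatches, and the others had 1. The plus-strand matches of the 29 and 35 kb bins and the minus-strand match of the 51 kb bin point towards each other. Of the 12 cluster bins, 4 held the core, against 15.2% of the 27304 bins in the untreated H3K27ac list. An exact short form of 12 letters, which lies within the core and was also searched on both strands, was in 3 cluster bins and in 13.4% of those bins. Of the 6 bins of 1 kb in the cluster that the CTCF list uses, 4 held the core, against 41.7% of the 34038 bins of that list, and 3 held the short form, against 21.1%. A match is a description of the letters and not evidence of binding.

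CTCF and RAD21 interactions in untreated cells, which the choice of the cluster did not use, joined its 2 outer edges. In the CTCF list the 1 kb bins at 29 and 51 kb had 250 contacts, 6.88 times the count predicted by the authors' model. Only 11 of the 49630 CTCF interactions had more contacts. In the RAD21 list the same bins had 164 contacts, 15.8 times the prediction, and 18 of 23630 interactions had more. Also inside the cluster, the 36 and 51 kb bins had 141 CTCF and 134 RAD21 contacts (3.92 and 13.9 times predicted), and the 29 and 36 kb bins had 134 CTCF contacts (1.33 times predicted) and 36 RAD21 contacts. Sites at 29, 36 and 51 kb were therefore linked in all 3 combinations in both lists, and each of these 3 bins holds a core match shown above.

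Within the cluster there were 7 CTCF interactions with 736 contacts in all and 9 RAD21 interactions with 502. The other 4 CTCF interactions lay beside those just named, at 29 and 52 kb (77 contacts), 35 and 51 kb (46), 30 and 51 kb (45) and 36 and 52 kb (43). RAD21 listed the same neighbours with 35, 29, 35 and 28 contacts. Beyond these, RAD21 listed the 29 and 35 kb bins with 25 contacts and the 43 and 51 kb bins with 16. The bins from 37 to 49 kb, among them those of highest H3K27ac coverage, had no CTCF interaction, and only the one at 43 kb had a RAD21 interaction.

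A further 47 CTCF and 21 RAD21 interactions left the cluster from 1 end, with 7 to 98 and 9 to 42 contacts. The most frequent CTCF ones ran from 29 kb to the bins at 61 kb (98 contacts) and 60 kb (78), and from 51 kb to -82 kb in the gene body (59). At the Rbfox2 promoter, the 0 kb bin had 59 CTCF contacts with the 29 kb bin and 36 with the 51 kb bin, and 23 and 30 RAD21 contacts. The 29 kb bin had 25 CTCF interactions, 18 of them towards Rbfox2 and 7 away from it. The 51 kb bin had 23, of which 22 went towards Rbfox2, and the 61 kb bin 19, of which 17 did. RAD21 showed the same lean at 51 kb, with 14 of 16 towards Rbfox2, while 29 kb was split 7 and 6. With no bin in the cluster there were 26 CTCF interactions, led by -82 to 61 kb (30 contacts), and 7 RAD21 interactions, led by -50 to 61 kb (14 contacts). Over the whole region 24 interactions were in both lists, 30% of the CTCF and 64.9% of the RAD21 interactions. These shares were not set against those of the full lists, so they only describe the region.

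**Figure D1:**
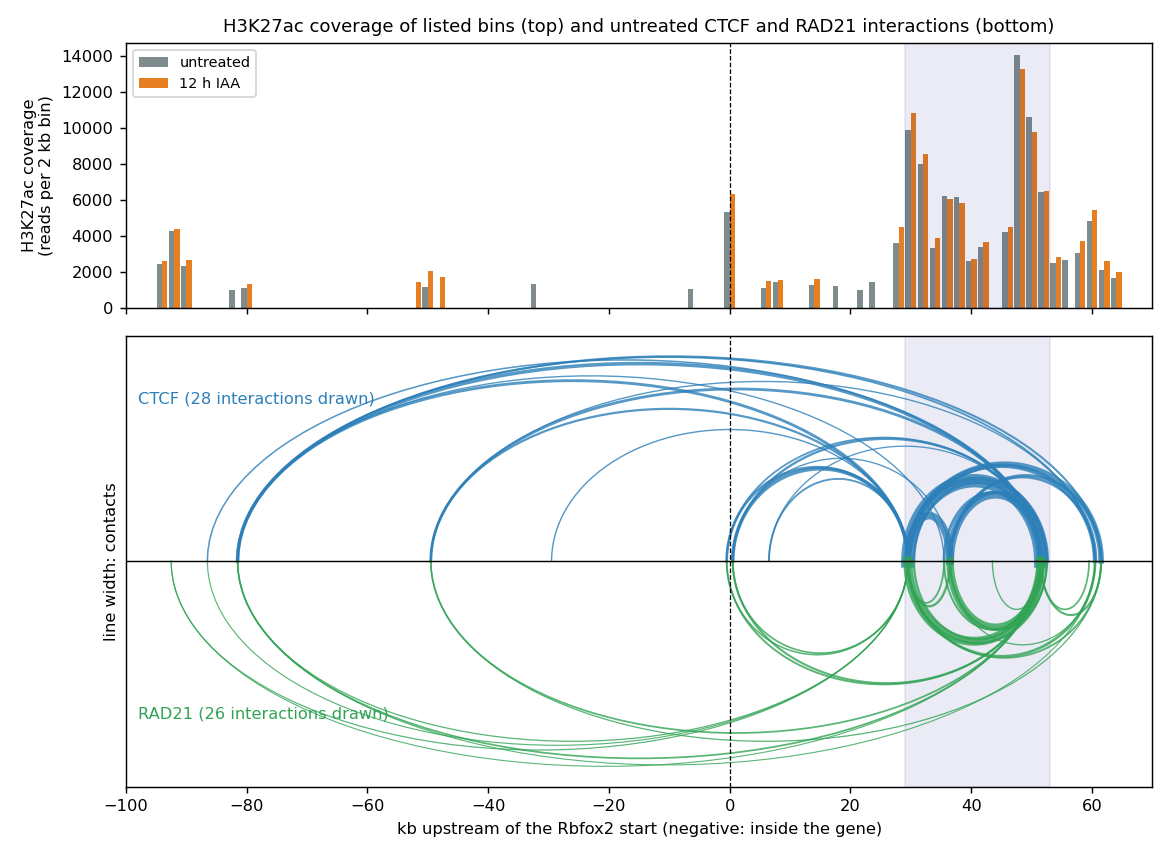
Top, H3K27ac coverage in reads of each listed 2 kb bin, untreated in grey and after IAA in orange; a bin without a bar was not in that list. Bottom, the 28 CTCF interactions (blue) and 26 RAD21 interactions (green) with both bins from -100 to 70 kb, lines wider with more contacts, cluster shaded. The thickest blue arcs join 29, 36 and 51 kb, and the thickest green arcs join 51 kb with 29 and 36 kb.

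In untreated cells the cluster bins were densely joined in the H3K27ac list. There were 34 listed bin pairs with both bins in the cluster, holding 1720 contacts. Among the 41889 windows of 24 kb on the genome with any listed pair, taken every 2 kb and so overlapping, 24 had more untreated pairs and 11 more untreated contacts. The 47 kb bin had 34 partners, in and out of the cluster, which only 6 of 27304 bins exceeded, against a median of 1. The bins at 49, 29, 51 and 31 kb had 30, 28, 23 and 21 partners. The 43 kb bin was in no H3K27ac pair of either list, and the 41 kb bin was listed as a partner but not as a peak.

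After IAA, 24 of those pairs were listed again and no new one appeared. Contacts in the shared pairs went from 1382 to 1035, a log2 ratio of -0.39 (95% counting interval -0.51 to -0.27). Ratios are scaled by the totals over all 15551 shared pairs of the genome, and intervals cover counting error only. Of the 24 ratios, 20 were below 0, against 46.2% of shared pairs genome-wide, and their median was -0.34, against 0.03 over the genome. By 2-fold or more, 3 of 24 were lower, against 1.23% genome-wide, and 5 by 1.5-fold or more, against 8.04%. None was higher by 2-fold, against 1.28%. Of the 18 shared cluster pairs with at least 40 untreated contacts, 3 were lower by 2-fold, against 2.14% of such pairs. These counts describe how the cluster was picked and carry no further weight. The size of the fall moved with the scaling: the log2 ratio was -0.64 when scaled by the contacts in the authors' models and -0.22 when contacts were divided by the root of the product of the 2 coverages.

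**Figure D2:**
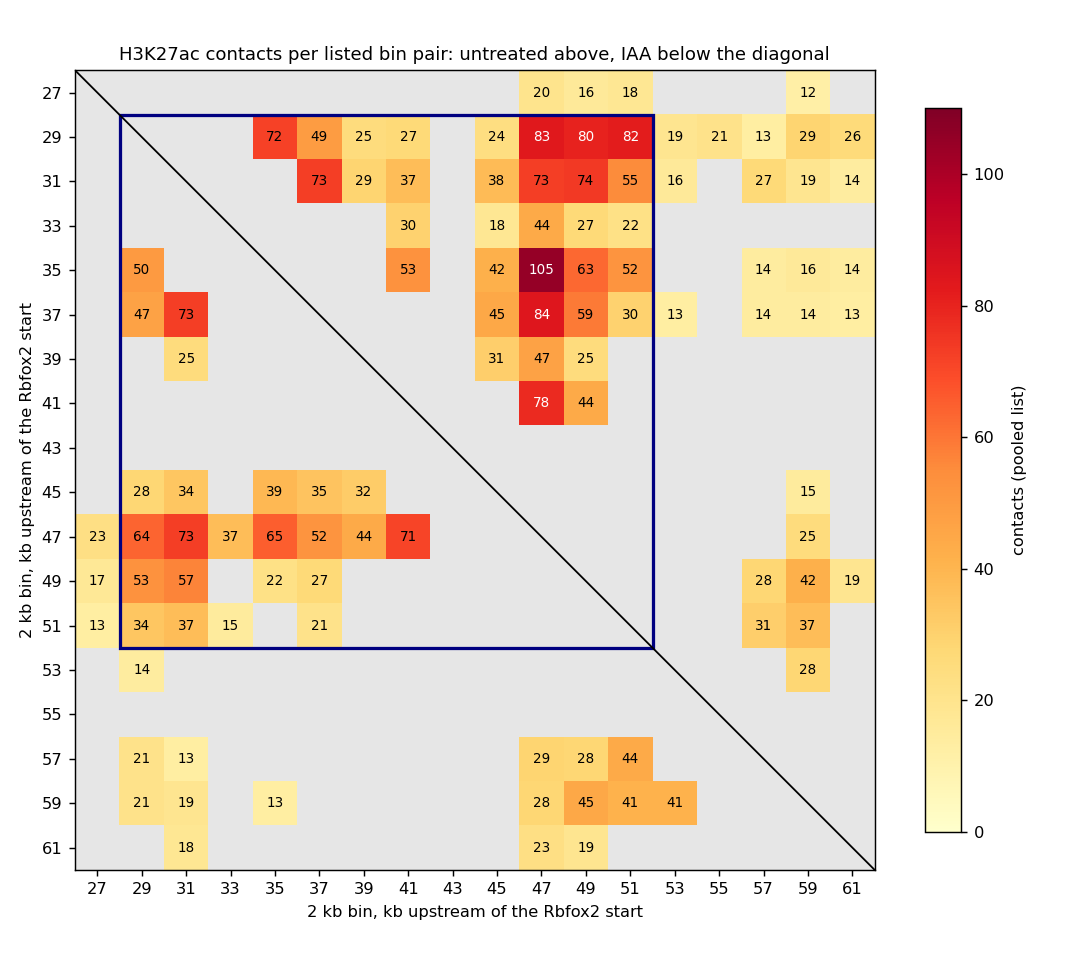
H3K27ac contacts of every listed pair among the 2 kb bins from 27 to 61 kb upstream of the Rbfox2 start, untreated above and after IAA below the diagonal, with the cluster outlined in blue and unlisted pairs in grey. Inside the outline the rows at 49 and 51 kb below the diagonal are paler than the columns at 49 and 51 kb above it (82 to 34 contacts for 29 and 51 kb). Pairs of the 49 and 51 kb bins with 57 and 59 kb, outside the outline, do not become paler.

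The deepest falls were at the far edge of the cluster, in pairs with the 49 and 51 kb bins. The 35 and 49 kb bins had 63 contacts untreated and 22 after IAA (log2 ratio -1.49). The 29 and 51 kb bins, which form the main CTCF and RAD21 loop, went from 82 to 34 (-1.24), and from 18.8 to 7.64 times the predicted count. The 37 and 49 kb bins went from 59 to 27 (-1.10). These were the 3 shared pairs past 2-fold, and each has a bin at 49 or 51 kb. The other shared pairs of the 49 kb bin were 29 kb, from 80 to 53 contacts (-0.56), and 31 kb, from 74 to 57 (-0.35). The other shared pairs of the 51 kb bin were 31 kb, from 55 to 37 (-0.54), 33 kb, from 22 to 15 (-0.52), and 37 kb, from 30 to 21 (-0.49). All 8 shared pairs of these bins within the cluster were therefore lower.

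The 47 kb bin next to them, which has the highest H3K27ac coverage of the cluster, had 7 shared pairs, with ratios from -0.66 to 0.03. Its pair with 35 kb held the most contacts of any untreated cluster pair and went from 105 to 65 (-0.66). The pair with 37 kb went from 84 to 52 (-0.66), and that with 29 kb from 83 to 64 (-0.35). The pair with 31 kb stayed at 73 contacts (0.03), while the pairs with 33 kb (44 to 37), 39 kb (47 to 44) and 41 kb (78 to 71) had ratios of -0.22, -0.07 and -0.11. Pairs of the 47 kb bin thus ranged from no change with 31 kb to a fall with 35 and 37 kb.

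The 45 kb bin had 5 shared pairs, with ratios from -0.33 to 0.25. With 29 kb it had 24 and 28 contacts (0.25), with 31 kb 38 and 34 (-0.13), and with 35 kb 42 and 39 (-0.08). With 37 kb it had 45 and 35 (-0.33), and with 39 kb 31 and 32 (0.07). Between bins on the Rbfox2 side of the cluster, the 29 and 35 kb bins, joined by CTCF and RAD21, went from 72 to 50 (-0.50). The 29 and 37 kb bins went from 49 to 47 (-0.03), and the 31 and 39 kb bins from 29 to 25. The 31 and 37 kb bins stayed at 73 contacts (0.03). Apart from the pair of the 29 and 35 kb bins, the ratios of these pairs lay between -0.33 and 0.25.

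Summed by bin, the 8 shared pairs with the 49 or 51 kb bin went from 465 to 266 contacts (log2 ratio -0.78, -1.0 to -0.56). The other 16 went from 917 to 769 (-0.22, -0.37 to -0.08). This split was chosen after the values were seen, so the difference between its sides is a description. The 49 kb bin alone gave -0.77 over 4 pairs and the 51 kb bin -0.79 over 4, against -0.31 over 7 pairs for 47 kb and -0.07 over 5 for 45 kb. The 2 shared pairs at the bin pair of a CTCF or RAD21 interaction went from 154 to 84 (-0.85, -1.25 to -0.45), and the 22 others from 1228 to 951 (-0.34, -0.46 to -0.22).

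**Figure D3:**
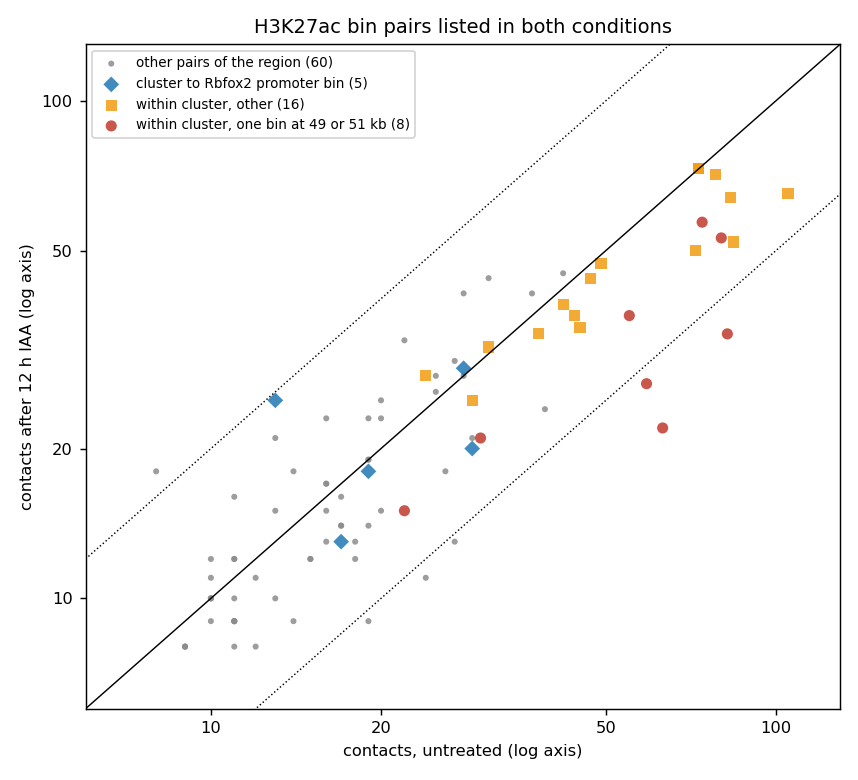
H3K27ac contacts of the 89 pairs of the region listed in both conditions, untreated on the horizontal and after 12 h IAA on the vertical log axis, as deposited; the solid line marks equal counts and the dotted lines 2-fold. The 8 cluster pairs with a bin at 49 or 51 kb (red circles) lie below the solid line, and the 5 pairs of the cluster with the promoter bin (blue diamonds) lie on both sides of it.

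The 10 cluster pairs listed in untreated cells only had 18 to 53 contacts, and an unlisted pair has no count. Genome-wide, 57.1% of untreated pairs were not listed after IAA, and 23.9% of those with at least 20 contacts, against 9 of the 33 cluster pairs of that size. For each, the number of contacts that would have entered the IAA list was estimated from the untreated prediction. For the 35 and 51 kb bins, which are also joined by CTCF and RAD21, 17 contacts would have sufficed, against 52 untreated, an estimated fall of 3.00-fold or more on the scaled counts. For the 33 and 49 kb bins the untreated 27 contacts also compare with 17. For the other 8 pairs the estimate was within about the untreated count, and the absence shows little. Those were 29 and 39 kb (25 contacts), 29 and 41 kb (27), 31 and 41 kb (37), 33 and 41 kb (30), 33 and 45 kb (18), 35 and 41 kb (53), 39 and 49 kb (25) and 41 and 49 kb (44). Among the 10, 5 had the 41 kb bin, the one that is not a peak.

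CTCF and RAD21 support was then counted pair by pair. The same 2 kb bin pair was in the CTCF list for 3 of 34 untreated pairs, against 6.23% genome-wide, and in the RAD21 list for 3, against 5.68%. They were the same pairs in both lists, 29 and 35, 29 and 51, and 35 and 51 kb. With each bin free to differ by 1 bin, 13 pairs matched a CTCF interaction, against 13.1% genome-wide, and 14 a RAD21 interaction, against 13.2%. Those cluster pairs lie side by side, so 1 interaction can match several of them. Of the shared pairs at a CTCF or RAD21 bin pair genome-wide, 4.57% were lower by 2-fold, and in the cluster 1 of 2.

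H3K27ac coverage of the cluster bins, the deposited read count of each bin, went up in some bins and down in others. The 47 kb bin had 14059 reads untreated and 13314 after IAA, the 49 kb bin 10638 and 9795, and the 51 kb bin 6454 and 6526. The 29 kb bin had 9922 and 10868, and the 31 kb bin 7991 and 8563. Genome-wide the median log2 ratio of coverage was 0.20 over 16828 bins in both lists, and scaled ratios take that median as 0. On that scale the 49 kb bin was at -0.32, the 37 and 47 kb bins at -0.28, the 35 kb bin at -0.24 and the 51 kb bin at -0.18. The bins at 29, 31, 39, 41 and 45 kb lay between -0.12 and -0.07, and the 33 kb bin at 0.03. Thus 10 of 11 were below the genome's median, and their own median was -0.12, where the quartiles over all bins were -0.11 and 0.12. Without scaling the median was 0.08. The 49, 37, 47 and 35 kb bins, which had the lowest coverage ratios, had contact ratios of -0.77, -0.39, -0.31 and -0.65 inside the cluster. The 51 and 29 kb bins had contact ratios of -0.79 and -0.47 at coverage ratios of -0.18 and -0.07. The part of coverage in the fall of contacts was not tested.

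**Figure D4:**
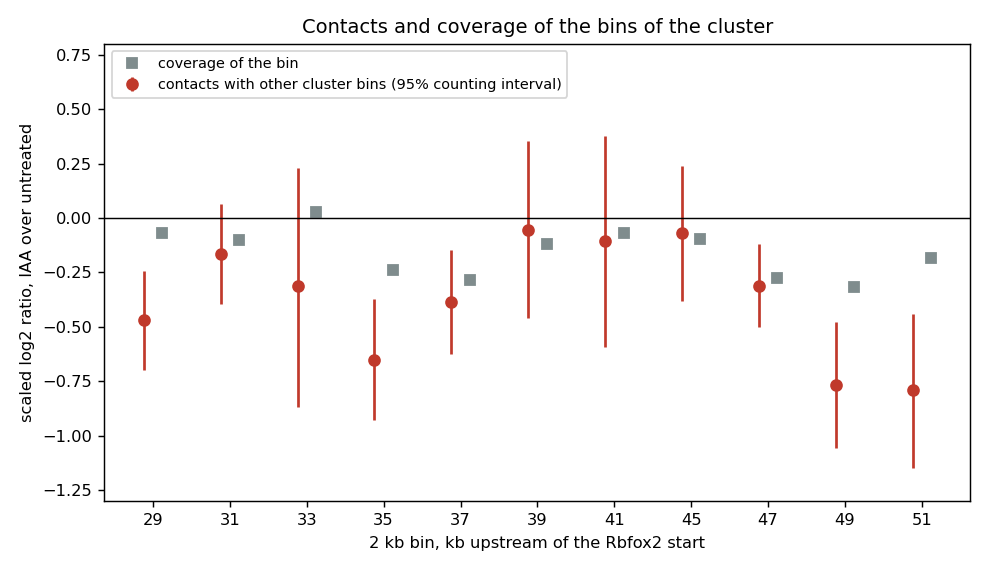
Scaled log2 ratios, IAA over untreated, for each of the 11 cluster bins that are in both H3K27ac lists, by kb upstream of the Rbfox2 start: shared contacts with other cluster bins (red, 95% counting interval) and coverage of the bin (grey squares). Contacts are at -0.77 and -0.79 for the 49 and 51 kb bins, where coverage is at -0.32 and -0.18.

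Contacts of the cluster with the Rbfox2 promoter summed to nearly the same count in both lists. All 5 pairs of the -1 kb bin with the cluster were listed in both conditions, against 42.9% of pairs genome-wide. That share varies with contacts, and these pairs had 13 to 29 untreated. Genome-wide, 32.1% of pairs under 20 contacts were listed again, while 23.9% of those with at least 20 were not. The 5 pairs had 106 contacts untreated and 105 after IAA (log2 ratio 0.02, -0.39 to 0.42). The difference from the ratio within the cluster was not tested. The 29 kb bin had 28 and 29 contacts with the promoter, and the 31 kb bin 13 and 25. The 47 kb bin had 19 and 18, the 49 kb bin 29 and 20, and the 51 kb bin 17 and 13. Contacts from 47 to 51 kb were lower in 3 of 3 pairs and those from 29 and 31 kb higher in 2 of 2, with intervals that include 0 in both (-0.32, -0.88 to 0.23, and 0.43, -0.19 to 1.05). Genome-wide, 46.2% of shared pairs were below 0, so signs over so few pairs show little. The promoter bin as a whole had 15 pairs untreated and 11 after IAA, and its 10 shared pairs had 176 and 181 contacts (0.07, -0.24 to 0.38). Its coverage was 5355 and 6325 reads, a scaled ratio of 0.04. Of the other protein-coding Rbfox2 starts, the -155 kb bin had 1 pair untreated and 3 after IAA, and those at -221 and -63 kb had none in either list. Starts of other annotated Rbfox2 transcripts lay in the bins at -105 kb, with 11 pairs untreated and 7 after IAA, at -175 kb, with 1 in each list, and at -219 kb, with 1 and 0.

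On the other side, contacts of the cluster with bins up to 16 kb beyond it also summed to similar counts. They were 23 pairs untreated and 16 after IAA, and the 13 shared ones had 319 and 324 contacts (0.05, -0.18 to 0.28). The bins at 47 to 51 kb, which lost contacts with the rest of the cluster, had 182 and 205 contacts with those at 57 to 61 kb (0.20, -0.09 to 0.50). Of these shared pairs 6 of 6 were above 0, where 46.2% of shared pairs genome-wide were below 0. Of the 6, 2 had equal counts in both lists and were above 0 through the scaling only. The bins at 29 to 39 kb had 118 and 105 contacts with the same partners (-0.14, -0.53 to 0.25), in 6 of 12 untreated pairs that were listed again. Between promoter and cluster, 5 shared pairs had 75 and 77 contacts.

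Towards the gene body the cluster had 47 pairs untreated, with 508 contacts in all, and 19 after IAA, with 192. Of the 47, 12 were listed again, or 25.5% (95% Wilson interval 15.3 to 39.5), against 42.9% genome-wide. Contacts were few: 46 of the 47 pairs had under 20 untreated contacts and 11 of those were listed again, against 32.1% of such pairs genome-wide. The 12 shared pairs went from 156 to 123 contacts (-0.31, -0.67 to 0.04), with 10 of 12 below 0, against 46.2% genome-wide. By 2-fold, 1 of these 12 was lower, against 1.23% genome-wide, and 0 were higher, against 1.28%. Past the 3′ end of Rbfox2, 34 pairs untreated became 18, with 11 shared and 144 and 131 contacts (-0.11, -0.46 to 0.24). Within the gene body, 26 pairs became 16, and the 6 shared ones had 136 and 135 contacts.

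**Figure D5:**
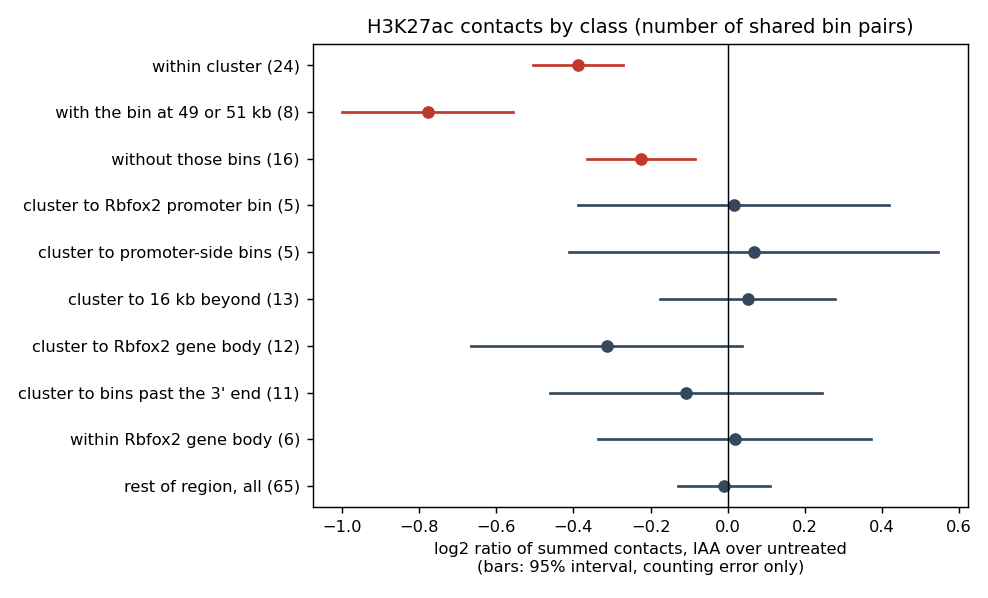
Log2 ratio of summed H3K27ac contacts, IAA over untreated, for classes of shared pairs (number in brackets), with 95% intervals for counting error; red marks pairs within the cluster. The red classes were chosen for their fall, so their place below 0 is no finding. The ratio of the cluster with the promoter bin is at 0.02. That of all pairs of the region other than those within the cluster, the promoter pairs included, is at -0.01.

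Taking all pairs of the region outside the cluster's own, 184 were listed untreated and 103 after IAA. The 65 shared ones had 1153 and 1123 contacts (-0.01, -0.13 to 0.11), with 34 below and 31 above 0. By 2-fold, 3 of 65 were lower, against 1.23% genome-wide, and 1 was higher, against 1.28%. Of all 218 untreated pairs, 89 or 40.8% were listed again (34.5 to 47.5), near the 42.9% of the genome. For pairs within the cluster it was 70.6% (53.8 to 83.2), and those pairs hold more contacts. Of the 127 pairs after IAA, 38 were not in the untreated list, against 44.9% genome-wide.

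The largest falls among shared pairs outside the cluster's own, with at least 20 contacts over both lists, were between -249 and -205 kb (24 to 11 contacts, -1.10), -93 and 51 kb (19 to 9, -1.05) and 31 and 57 kb (27 to 13). The bin pair of the second was in the RAD21 list, and its far end was the same 51 kb edge. Next were -105 and -93 kb (39 to 24, -0.67) and the 49 kb bin with the -251 kb bin at Apol6 (14 to 9, -0.61). The largest rises were -251 and 47 kb (8 to 18, 1.20), the promoter bin with 31 kb (0.97, given above), 29 and 57 kb (13 to 21, 0.72), -113 and -105 kb (22 to 33, 0.61) and 53 and 59 kb (28 to 41, 0.58). Among shared pairs outside the cluster's own, 3 falls and 1 rise thus passed 2-fold, and they rested on few contacts.

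Of the pairs outside the cluster's own that were listed in one condition only, the 5 with most contacts untreated were -101 and -93 kb (32), 29 and 61 kb (26), -227 and -219 kb (24), -227 and -217 kb (24) and -119 and -113 kb (22). The 29 and 61 kb pair was the one joined by both CTCF and RAD21. After IAA they were -101 and -95 kb (41), 47 and 57 kb (29), -115 and -105 kb (26), -237 and -231 kb (24) and 47 and 61 kb (23). In the gene body the -101 kb bin thus paired with -93 kb in one list and with -95 kb, the next bin, in the other.

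The bins just outside the cluster's edges had 5 untreated partners each. The 27 kb bin had 3590 and 4510 reads, and 20 and 23 contacts with 47 kb, 16 and 17 with 49 kb and 18 and 13 with 51 kb. It had 11 and 16 contacts with the promoter bin, and its 12 with 59 kb were not listed again. The 53 kb bin had 2522 and 2840 reads and 19 and 14 contacts with 29 kb, while its 16 contacts with 31 kb, 13 with 37 kb and 10 with -249 kb were not listed again. Its pair with 59 kb, given above, had 28 and 41. Just inside, the 29 and 51 kb bins are those with the loop described above.

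Among the 254 windows of 24 kb with at least 12 shared pairs, on 17 chromosomes, ratios ran from -0.53 to 0.69 with a median of -0.01, and 11 windows, 2 of them overlapping the cluster, were lower than its -0.39. The 36 with at least as many shared pairs as the cluster, itself included, lay on 4 chromosomes and had a median of 0.39. Of these windows, which overlap and come from few loci, 0 were lower. The windows overlap one another, and the cluster was picked for its fall, so its place among them is a description.

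Of 13 other splicing regulators, Rbfox1, Rbfox3, Mbnl1, Mbnl2 and Esrp1 had no H3K27ac pair at a start site in either list, and 8 had one untreated. Hnrnpm, Hnrnph1, Hnrnpc, Hnrnpul2 and Ddx5, partners of Rbfox proteins in a splicing complex, and Ptbp1 and Qk, other splicing regulators, had 38 shared pairs. Their summed ratios ran from -0.12 for Ddx5 (163 to 147 contacts) to 0.21 for Hnrnpc (38 to 43), with a median of 0.08. Of the 38 pairs, 1 was lower and 1 higher by 2-fold, both at Ddx5, against 1.23% and 1.28% genome-wide. Pairs at the protein-coding starts of Rbfox2 itself, 11 shared with 187 and 189 contacts (0.04, -0.25 to 0.34), lay inside that range.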

How the data were processed

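Members and gene lists were chosen with earlier results of these data known. The authors deposited 1 list of interactions for each group, and the labels name it for every library of that group. Per the file headers, each row holds a contact count that was not normalised, the coverage of both bins (counts of reads), a peak flag, a p-value and a q-value (under 0.05). The authors' model adds a predicted number of contacts (a signal) and its probability as a fraction. Per the submitters' processing notes, Trim Galore, BWA, MACS2, deepTools and mm10 were used; the names of the deposited lists give FitHiC for the interaction calls, and its version is not given in the sources used here. Bins are 2 kb for H3K27ac and 1 kb for CTCF and RAD21. The authors' model totals were 12551236 contacts untreated and 14629323 after IAA.

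Pairs were matched by exact bins. Ratios used the totals over shared pairs (347765 and 340816 contacts) and exact conditional binomial intervals, checked on simulated data. Intervals and shares cover counting error only, since reads are not independent molecules. CTCF and RAD21 bins were assigned to 2 kb bins. The contacts needed to enter the IAA list were the smallest count whose binomial p reached the largest p in that list. All 24 listed cluster pairs met their own limit. That follows from how the limit is set, so it does not test the estimate for unlisted pairs. Genes came from GENCODE M21. Named pairs are all cluster pairs, and outside it the 5 largest falls and rises with at least 20 contacts over both lists and the 5 with most contacts in one list only. Python 3.11.15, pandas 2.3.3, numpy 2.4.6, scipy 1.17.1 and matplotlib 3.10.9 were used. The alternatives tried covered scaling, coverage, q, contact minimum, bin tolerance and motif.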

Additional observations from a re-analysis of the deposited data

How the results depend on the processing

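No paired analysis was possible because each group has a single pooled list, and for the same reason leaving out replicates was not run. The contact ratio within the cluster stayed below 0 under every alternative run. From -0.39 it moved to -0.64 scaled by the model totals, -0.22 over the root of the coverage product and -0.25 with at least 1 bin in the cluster; without the pair of largest fall it was -0.35, and without the 47 kb bin -0.44, both chosen after seeing the data. A fold of 1.5 gave 5 lower pairs in place of 3. For pairs of the region other than those within the cluster, the ratio was -0.26 scaled by model totals and 0.030 over predicted contacts. With both bins in the region this ratio was 0.026, so its sign is not set. The share listed again was 74.8% with each bin free by 1 bin, 48.9% from 10 contacts and 49.1% at q up to 0.01, against 65.7%, 48.7% and 52.7% genome-wide. Coverage turned from -0.12 to 0.079 unscaled. With each bin free by 1 bin, 13 cluster pairs matched CTCF and 14 RAD21, against 13.1% and 13.2% of all untreated pairs. The causes were not tested. Of 28 alternative values, 15 were classed as close to the reported value, though not all were equal to it, 10 as moved, and 3 changed sign. Depth limits single pairs: most in the region hold under 40 contacts, and an unlisted pair has no count.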
